A study of Mus musculus with 87 samples.

Results

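The constitutive proteasome genes were followed in mouse ventral midbrain nuclei after injection of interferon gamma (IFN-γ), a cytokine of T cells and natural killer cells. Members were all genes of the bulk count table whose symbol is Psm, a letter from a to g and a number, without the IFN-γ-inducible Psmb8, Psmb9, Psmb10, Psme1 and Psme2, and with at least 20 counts over the 84 wells. Of 48 matching symbols, 5 were the inducible genes and 2, Psmb11 and Psmg3, held 6 and 2 counts, which left 41 members among 48526 genes in the table. The members comprised 8 alpha and 7 beta genes of the 20S core, 6 ATPase and 11 other genes of the 19S cap, 3 genes of activators or an inhibitor, and 6 genes of assembly chaperones.

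Wild-type C57BL/6J mice of both sexes, aged 6 to 12 months per the study's methods, received 40 ng of IFN-γ or saline alone by stereotactic injection into both ventral midbrains, and carried no engineered allele. Nuclei were taken at 6, 24, 48 and 72 h, stained for NeuN, a neuronal nuclear protein, and sorted into a neuronal (NeuN+) and a largely glial (NeuN−) fraction. In each fraction there were 6 IFN-γ wells at each time and 4 saline wells at 6, 48 and 72 h or 6 at 24 h, and wells were the unit of every test, since which wells share a mouse was not known. At 48 h, NeuN+-enriched single nuclei were also profiled, from 1 mouse given saline and 2 given IFN-γ.

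The proteasome is the protease complex that degrades most ubiquitin-tagged proteins of the nucleus and cytosol. Its 20S core is a barrel of outer alpha rings and inner beta rings, in which the proteolytic sites lie, and the 19S cap binds, unfolds and admits substrates. In cells exposed to IFN-γ the catalytic beta subunits encoded by Psmb5, Psmb6 and Psmb7 can be replaced in newly built cores by those of Psmb8, Psmb9 and Psmb10, forming the immunoproteasome that cuts peptides for MHC class I. Nfe2l1, a CNC-bZIP factor, is known to raise constitutive proteasome genes together when proteasome activity falls.

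Of the 41 members, 7 or 8 could be tested in each NeuN− and 32 to 34 in each NeuN+ comparison. In the 8 bulk comparisons of IFN-γ with saline, 4 members rose at least once and none was called lower. Of all genes tested, 3.98% to 41.3% were called in NeuN− and 0.867% to 11.5% in NeuN+. The members that rose were Psma1, Psma3 and Psma5, which encode alpha ring subunits, and Psmb2, which encodes a non-catalytic beta subunit. The bulk Psmb2 call, in NeuN− at 72 h, was lost with DESeq2 and against saline wells of all times. Each rise was below 1 on the log2 scale. In single nuclei, from 1 saline and 2 IFN-γ mice, Psmb2 was called higher in oligodendrocyte-like nuclei by edgeR but not by DESeq2 (adjusted p = 0.9997), and no other member was called in the 5 classes tested.

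The promoters of the 3 alpha genes are shown because their RNA rose, that of Psmb5 because it holds a CNC-bZIP core, and that of Psmb8 for contrast with an inducible gene. They are RefSeq sequences of GRCm38.p6, from 250 bases before to 50 bases after the annotated start, 5′ to 3′ on the gene's strand. Capitals mark matches to 4 motifs searched on both strands: the CNC-bZIP core TGACNNNGC, the GAS core TTCNNNGAA, the ISRE core GAAANNGAA bound by interferon regulatory factors, and the CCAAT box.
Psma1 (chr7:114276067-114276366, minus strand): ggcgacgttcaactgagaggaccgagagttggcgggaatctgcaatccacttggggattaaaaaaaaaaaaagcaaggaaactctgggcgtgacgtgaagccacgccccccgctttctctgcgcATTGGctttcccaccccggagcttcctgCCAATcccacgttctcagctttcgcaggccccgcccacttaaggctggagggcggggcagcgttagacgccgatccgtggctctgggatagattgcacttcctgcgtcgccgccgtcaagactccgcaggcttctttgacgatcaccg
Psma3 (chr12:70974373-70974672, plus strand): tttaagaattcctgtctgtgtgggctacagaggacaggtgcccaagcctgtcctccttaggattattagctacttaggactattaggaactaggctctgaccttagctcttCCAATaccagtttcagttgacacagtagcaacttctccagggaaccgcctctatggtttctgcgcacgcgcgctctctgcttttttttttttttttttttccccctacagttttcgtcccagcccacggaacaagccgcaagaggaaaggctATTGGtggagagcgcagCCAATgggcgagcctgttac
Psma5 (chr3:108256676-108256975, plus strand): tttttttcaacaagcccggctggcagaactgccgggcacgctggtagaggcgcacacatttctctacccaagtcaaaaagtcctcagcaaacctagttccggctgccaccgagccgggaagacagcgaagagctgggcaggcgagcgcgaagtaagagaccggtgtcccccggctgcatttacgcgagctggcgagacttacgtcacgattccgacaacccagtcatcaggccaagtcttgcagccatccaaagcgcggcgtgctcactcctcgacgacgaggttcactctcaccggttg
Psmb5 (chr14:54617946-54618245, minus strand): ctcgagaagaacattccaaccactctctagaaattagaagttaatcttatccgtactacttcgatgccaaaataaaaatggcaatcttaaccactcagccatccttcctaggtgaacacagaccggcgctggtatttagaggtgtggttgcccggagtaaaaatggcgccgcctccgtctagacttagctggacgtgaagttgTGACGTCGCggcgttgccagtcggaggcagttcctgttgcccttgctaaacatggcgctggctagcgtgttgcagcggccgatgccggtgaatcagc
Psmb8 (chr17:34197945-34198244, plus strand): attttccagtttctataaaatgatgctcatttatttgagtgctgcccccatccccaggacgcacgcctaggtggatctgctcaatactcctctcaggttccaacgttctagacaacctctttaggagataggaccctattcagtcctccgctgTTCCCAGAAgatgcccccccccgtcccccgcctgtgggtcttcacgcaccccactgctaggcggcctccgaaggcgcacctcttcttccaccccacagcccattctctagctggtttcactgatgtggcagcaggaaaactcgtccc

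The Psma1 window held CCAAT boxes beginning at -126 and -98 from the start, and the Psma3 window held CCAAT boxes at -139, 14 and 31. The Psma5 window held none of the 4 motifs, Psmb5 held the CNC-bZIP core at -47 and Psmb8 held the GAS core at -97. Promoter sequences were at hand for 33 members and all 5 inducible genes. Some members, such as Psmc2, had several promoter entries, and a member was counted if any of its entries held the motif. The shares of all promoters count each entry apart, so member shares can be raised by this and the percentages are not like for like. The CNC-bZIP core was found in 6 of the 33 members, Psmb5, Psmb6, Psmc6, Psmd9, Psmd12 and Psme4, or 18.2%, against 12.4% of all 32851 promoters. The GAS core was found in Psmd2 and Psmg1, or 6.06% of members, against 8.3% of all promoters. The ISRE core was found in 6 members, Psmb3, Psmb4, Psmc2, Psmd4, Psmd9 and Psmg4, or 18.2%, against 8.56%, and the CCAAT box in 12 members, or 36.4%, against 37.4%. Of the members that rose after IFN-γ, Psma1, Psma3 and Psma5 held neither a GAS nor an ISRE core in this window. Of the 5 inducible genes, only Psmb8 held a GAS core and only Psme1 an ISRE core. Psmb9, Psmb10 and Psme2 held neither, so lacking both cores here does not set the alpha genes apart from inducible genes. Psmb1, Psmb2, Psmb7, Psma8, Psmc3, Psmd3, Psmd7 and Psmg2 were not searched.

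Depth set how many members could be tested. NeuN− wells held 20962 to 301445 UMI counts and NeuN+ wells 277113 to 1684374, so 7 or 8 members passed the count filter in each NeuN− comparison and 32 to 34 in each NeuN+ comparison. Rbfox3, which encodes NeuN, had a median of 8.49 CPM, a count scaled to the total of its well, in saline NeuN− wells and 127 in saline NeuN+ wells, and Mbp, a myelin gene, had 1528 and 80.2. Sex-linked genes differed between treatments at 6 and 24 h, so the sex of the mice was not balanced there. Sex and IFN-γ cannot be fully told apart at those times. The Y-linked gene Eif2s3y had a log2 fold change of -5.83 in NeuN− and -6.28 in NeuN+ wells at 6 h. Its NeuN+ means were 0.774 CPM with IFN-γ and 72.4 with saline. Xist had one of -3.63 in both fractions at 24 h. NeuN+ wells then ranged from 30.1 to 74.9 CPM with IFN-γ and from 21 to 1177 with saline. At 72 h Xist was called in NeuN− at -1.5 (edgeR adjusted p = 0.04999), with saline wells from 39.6 to 1272 CPM around a median of 139. In NeuN+ at 72 h Xist was called at 0.6 (edgeR adjusted p = 0.0334). The Y-linked genes were not called at 72 h. The summed level of 6 oligodendrocyte marker genes in NeuN− wells was 3816 to 4872 CPM with IFN-γ against 6921 to 7973 with saline at 6 h, and 2347 to 2944 against 7044 to 8623 at 24 h. In bulk wells fewer nuclei of a type and less RNA per nucleus cannot be told apart, and the part of these differences in the results was not tested.

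**Figure D1:**
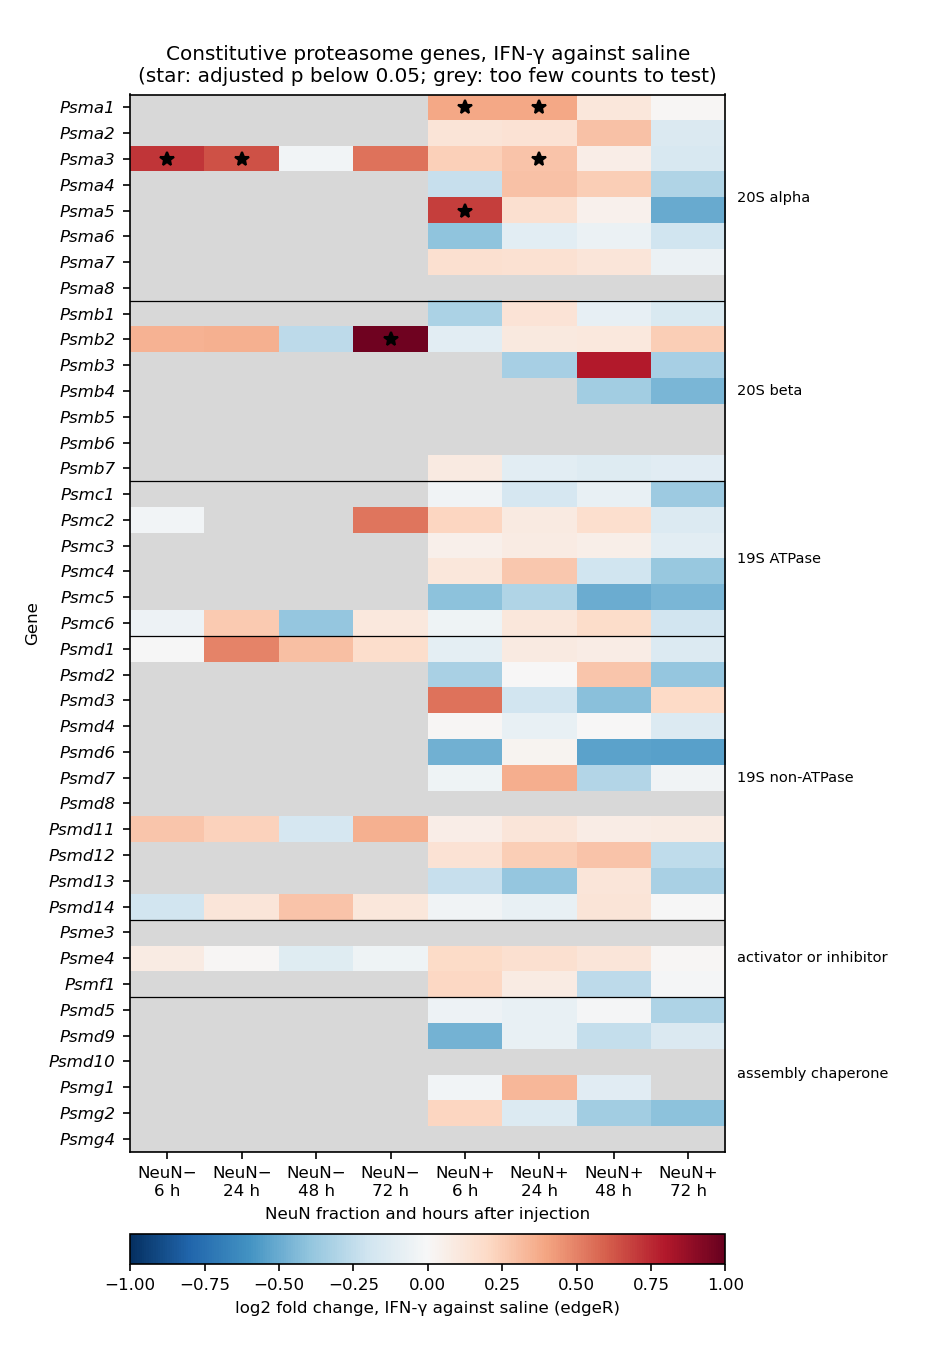
Log2 fold change of each of the 41 members (rows, ordered by role) in the 8 comparisons of IFN-γ with saline (columns), in red where IFN-γ was higher. Stars mark the 7 calls with an adjusted p below 0.05, of which 6 fall in the 20S alpha genes Psma1, Psma3 and Psma5. In the comparisons with those 6 calls, the share of members called was below that of all genes. Grey cells are members with too few counts to test.

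Calls were made with the edgeR quasi-likelihood test at a Benjamini-Hochberg adjusted p below 0.05 over all genes tested in a comparison. In NeuN− nuclei 1 of 8 tested members was called at 6 h, 1 of 7 at 24 h, 0 of 7 at 48 h and 1 of 8 at 72 h. The background in those comparisons was 33.1%, 41.3%, 6.21% and 3.98% of all genes tested. In NeuN+ nuclei 2 of 32 were called at 6 h, 2 of 33 at 24 h, 0 of 34 at 48 h and 0 of 33 at 72 h, against 8.6%, 11.5%, 0.867% and 7.17% of all genes. The share of members called was therefore at or below the background in every comparison with a call except NeuN− at 72 h, where it was 1 gene. In the 3 comparisons with none called, members at unadjusted p below 0.05 in edgeR numbered 0 in NeuN− at 48 h. In NeuN+ they numbered 3 at 48 h and 4 at 72 h. Of all genes tested in these comparisons, 417 of 2352, 1259 of 10033 and 1888 of 9405 were below that limit. DESeq2 also called 0 members in each.

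Intervals of the changes treat wells as independent, though wells of a group came from few mice, so they do not bound the effect across mice. The 95% interval of the log2 fold change lay within 1 of 0 for 33 of 33 members in NeuN+ at 24 h, 29 of 32 at 6 h, 31 of 34 at 48 h and 32 of 33 at 72 h. In NeuN− it did so for 7 of 8 members at 6 h, 5 of 7 at 24 h, 7 of 7 at 48 h and 6 of 8 at 72 h. At 72 h in NeuN+ nuclei 28 of 33 members lay below 0, where 49.5% of all genes tested lay above 0. The median was -0.15 for members and -0.002 for all genes tested, and no member was called. At 6, 24 and 48 h the NeuN+ medians of the members were -0.004, 0.09 and 0.05. In NeuN− nuclei the medians of the few testable members were 0.04, 0.26, -0.12 and 0.27 at the successive times.

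The 20S alpha genes held 6 of the 7 calls, all from Psma3, Psma1 and Psma5, with Psma3 and Psma1 called in several comparisons. In those comparisons, at 6 and 24 h, 33.1% and 41.3% of all genes were called in NeuN− and 8.6% and 11.5% in NeuN+. The share of members called was lower in each, so the count is not read as a result about the alpha genes. Psma3 was measured in all 84 wells and was called in both fractions. In NeuN− nuclei at 6 h Psma3 had a lowest, median and highest level of 212, 284 and 367 CPM in IFN-γ wells, and 120, 155 and 254 CPM in saline wells. The ranges overlapped, with 1 saline well reaching into the IFN-γ range, and the log2 fold change was 0.71 (SE 0.20, n = 6 and 4 wells, edgeR adjusted p = 0.00607). At 24 h Psma3 stood at 199, 245 and 330 CPM with IFN-γ and 99.2, 141 and 205 with saline, with 1 saline well above the lowest IFN-γ well and a log2 fold change of 0.64 (SE 0.20, n = 6 and 6, edgeR adjusted p = 0.0124). Leaving out saline replicate 2 at 24 h gave 0.52 with an adjusted p of 0.0501.

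At 48 h the Psma3 difference in NeuN− nuclei was -0.02. At 72 h the 6 IFN-γ wells, at 163 to 210 CPM, all lay above the 4 saline wells at 79.3 to 158 CPM, but the log2 fold change of 0.54 missed the threshold (edgeR adjusted p = 0.16). In NeuN+ nuclei Psma3 rose at 24 h, from 169, 182 and 197 CPM in saline to 200, 218 and 227 CPM in IFN-γ wells, without overlap and by 0.29 (SE 0.07, n = 6 and 6, edgeR adjusted p = 0.00496). The Psma3 differences in NeuN+ were 0.24 at 6 h (edgeR adjusted p = 0.0772), 0.07 at 48 h and -0.16 at 72 h (edgeR adjusted p = 0.223).

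A test of whether the IFN-γ effect was unequal over the 4 times called Psma3 in NeuN+ nuclei (edgeR adjusted p = 0.00474). Wells of each time came from few mice, whose sex-linked genes also varied between times, so time and mice cannot be told apart in that test. The 20S gene Psma3 lies on chromosome 12 at 70974621 to 70996347, plus strand (GRCm38), and the noncoding gene 3110056K07Rik overlaps it on the opposite strand. That neighbour rose in NeuN+ nuclei at 6 h by 0.48 (edgeR adjusted p = 0.0208) and differed by 0.26 at 24 h (edgeR adjusted p = 0.256) and by 0.81 in NeuN− at 6 h (edgeR adjusted p = 0.0663). Whether counting used strand is not given in the sources used here, so reads of Psma3 and of 3110056K07Rik cannot be told apart.

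Psma1 and Psma5 were called in NeuN+ nuclei and had too few counts in NeuN− nuclei for the comparison at any single time. Psma1 at 6 h had 92.4, 104 and 117 CPM in IFN-γ wells against 70.7, 74.8 and 89.2 CPM in saline wells. The Psma1 ranges did not overlap, and the log2 fold change was 0.39 (SE 0.11, n = 6 and 4, edgeR adjusted p = 0.0198). At 24 h Psma1 had 90.4, 111 and 117 CPM against 67.2, 88.6 and 96.2 CPM, with an overlap, and a log2 fold change of 0.38 (SE 0.10, n = 6 and 6, edgeR adjusted p = 0.01). The Psma1 differences were 0.12 at 48 h and 0.01 at 72 h. Leaving out saline replicate 2 or 3 at 6 h ended the first call, at 0.35 (edgeR adjusted p = 0.0891) and 0.33 (edgeR adjusted p = 0.115).

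Psma5 at 6 h in NeuN+ nuclei had 27.2, 36.9 and 46.8 CPM with IFN-γ against 18.9, 22.4 and 28.9 CPM with saline, and the highest saline well lay within the IFN-γ range. The log2 fold change of Psma5 was 0.69 (SE 0.20, n = 6 and 4, edgeR adjusted p = 0.0288), and it was the largest difference among members tested in NeuN+ at 6 h. It was 0.16 at 24 h, 0.04 at 48 h and -0.50 at 72 h (edgeR adjusted p = 0.0803). The test for an effect unequal over the times called Psma5 (edgeR adjusted p = 0.00675), with time and mice again not told apart. The Psma5 call at 6 h was lost without saline replicate 2, 3 or 4 or IFN-γ replicate 3 or 6 (differences of 0.61 to 0.73, adjusted p 0.0611 to 0.124) and with DESeq2 (adjusted p = 0.06). The antisense gene 1700010K24Rik overlaps Psma5, with a median of 9.18 CPM in these IFN-γ wells and 7.33 CPM in the saline wells.

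The other alpha genes, Psma2, Psma4, Psma6 and Psma7, were tested in NeuN+ nuclei at each time without a call, and Psma6 at 6 h had a difference of -0.41 (edgeR adjusted p = 0.24). Psma8, which encodes the testis form of an alpha subunit, held 93 counts over all wells and was not tested. Summed over the 8 alpha genes, NeuN+ wells at 24 h had 449 to 513 CPM with IFN-γ and 381 to 446 CPM with saline. Glial markers also moved in NeuN+ wells: the oligodendrocyte list summed to 157 to 209 CPM with IFN-γ against 288 to 403 CPM with saline at 6 h, and the astrocyte list to 280 to 307 against 100 to 225 CPM at 24 h. Their part in the alpha gene results was not tested.

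**Figure D2:**
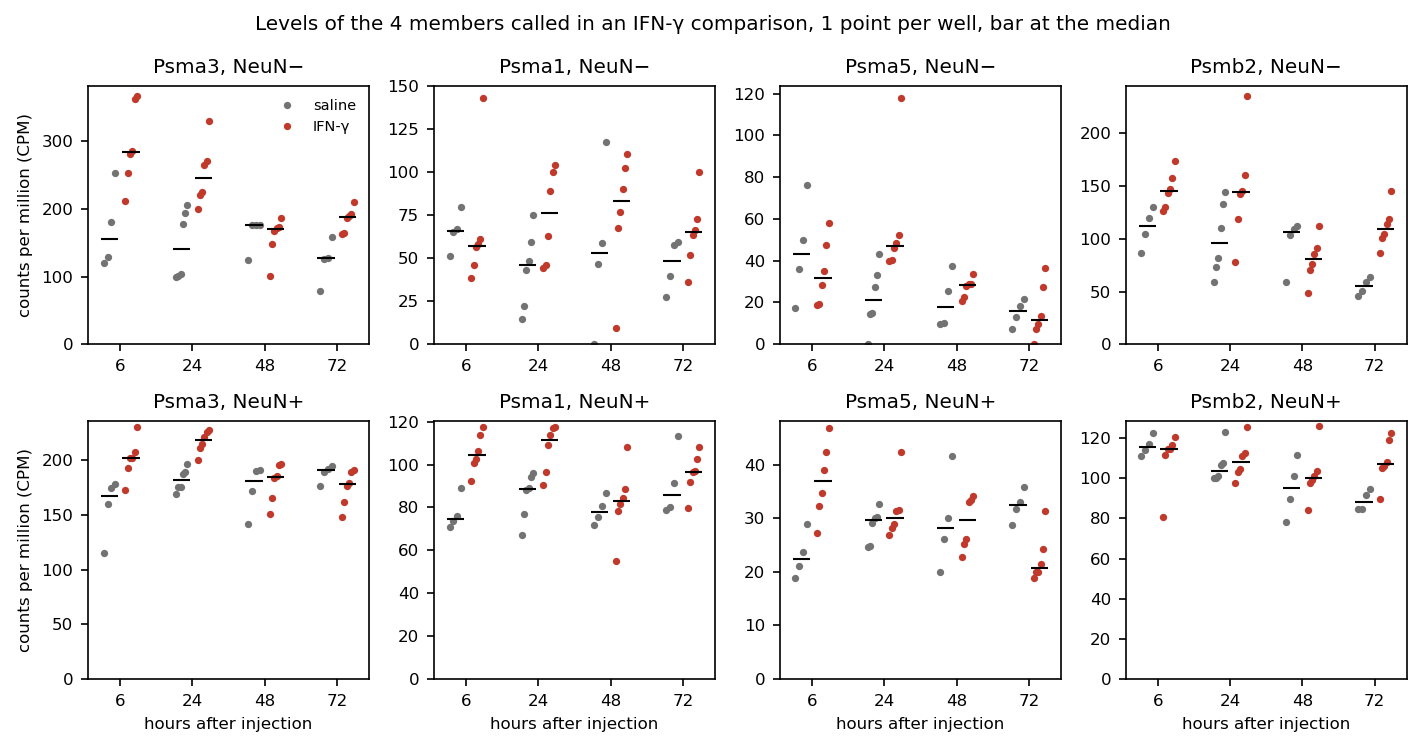
CPM of Psma3, Psma1, Psma5 and Psmb2 in every NeuN− well (top row) and NeuN+ well (bottom row) at each time after injection, with saline in grey, IFN-γ in red and a bar at each group's median. NeuN+ Psma3 at 24 h, NeuN+ Psma1 at 6 h and NeuN− Psmb2 at 72 h separate without overlap, whereas the other called groups overlap.

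Among the 20S beta genes only Psmb2 was called. Psmb2 in NeuN− nuclei at 72 h had 86.6, 109 and 145 CPM in IFN-γ wells against 46.2, 54.9 and 63.5 CPM in saline wells. The ranges did not overlap and the log2 fold change was 0.97 (SE 0.29, n = 6 and 4, edgeR adjusted p = 0.048). The saline wells at 72 h were the lowest of the saline groups for Psmb2 in this fraction, where the medians at 6, 24 and 48 h were 112, 96.3 and 107 CPM. Set against saline wells of all times, the difference was 0.26 (edgeR adjusted p = 0.643). The call was also lost without any 1 of 9 of the 10 wells, all except IFN-γ replicate 6, with differences of 0.89 to 1.04 and adjusted p of 0.0531 to 0.154.

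Psmb3, another non-catalytic beta gene, had the largest difference of the members tested in NeuN+ at 48 h, 0.79, and was not called (edgeR adjusted p = 0.298). Psmb2 differed by 0.35, 0.35 and -0.26 in NeuN− nuclei at 6, 24 and 48 h, none of them called. In NeuN+ nuclei Psmb2 differed by -0.11, 0.10, 0.11 and 0.24 at the 4 times, with an adjusted p of 0.123 in edgeR at 72 h. Psmb2 lies on chromosome 4 at 126677630 to 126709714, plus strand (GRCm38), with no overlapping gene. At 72 h the astrocyte markers of NeuN− wells summed to 887 to 1125 CPM with IFN-γ and 1136 to 1225 CPM with saline, and their part in the Psmb2 result was not tested.

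The constitutive catalytic genes gave no call. Psmb7, which encodes the trypsin-like subunit, was the only one of the 3 with enough counts for the single-time tests, and in NeuN+ nuclei at 6 h it had 35.7, 42 and 49.5 CPM with IFN-γ and 18, 38.9 and 46.2 CPM with saline. Its differences were 0.09 (95% interval -0.24 to 0.42), -0.11 (-0.39 to 0.17), -0.13 (-0.42 to 0.16) and -0.12 (-0.42 to 0.19) at 6, 24, 48 and 72 h. Psmb5 and Psmb6, which encode the chymotrypsin-like and caspase-like subunits, held 120 and 339 counts over all wells. Summed over Psmb5, Psmb6 and Psmb7, NeuN− wells at 24 h had 14.7 to 96.6 CPM with IFN-γ and 24.2 to 86.6 CPM with saline, while the 3 inducible partners Psmb8, Psmb9 and Psmb10 had 66.9 to 132 and 0 to 14.4 CPM.

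The summed level of the 15 core genes in NeuN− wells separated the treatments at the early times, and Psma3, the only core gene called there, carried part of the gap. The sum was 753 to 906 CPM with IFN-γ and 557 to 733 CPM with saline at 6 h, and 759 to 884 against 400 to 606 CPM at 24 h, with no overlap at either time. Without Psma3, a sum added after seeing the data, the ranges overlapped at both times. At 6 h they were 436 to 620 CPM with IFN-γ and 428 to 580 CPM with saline. At 24 h they were 496 to 663 and 297 to 505 CPM. The IFN-γ and saline medians at 24 h were 842 and 560 CPM for all 15 genes, and 573 and 385 CPM without Psma3. These medians at 6 h were 845 and 684 CPM, and 556 and 483 CPM without Psma3. At 48 h the ranges of all 15 genes were 540 to 672 and 521 to 716 CPM, and at 72 h 547 to 680 and 377 to 561 CPM, both overlapping. These sums were not tested. In the same NeuN− wells the astrocyte marker genes summed to 1705 to 2267 CPM with IFN-γ and 557 to 1207 CPM with saline at 24 h, beside the lower oligodendrocyte markers given above. In NeuN+ wells the core sums overlapped at all 4 times.

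**Figure D3:**
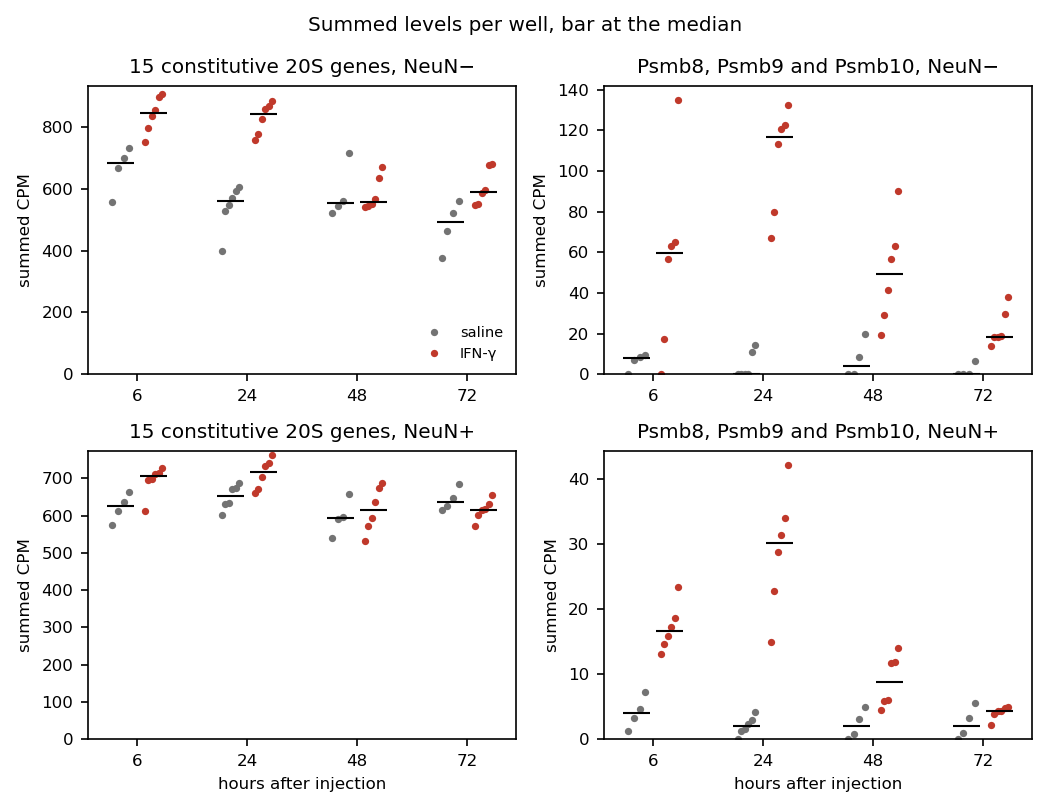
Summed CPM per well of the 15 constitutive 20S genes (left) and of Psmb8, Psmb9 and Psmb10 (right) in NeuN− wells (top) and NeuN+ wells (bottom) by hours after injection, with a bar at the median. NeuN− core sums at 24 h are 759 to 884 CPM with IFN-γ and 400 to 606 CPM with saline, and the inducible sums there are 66.9 to 132 and 0 to 14.4 CPM.

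No gene of the 19S cap was called after IFN-γ in bulk nuclei. The 6 ATPase genes, Psmc1 to Psmc6, encode the ring that unfolds substrates, and all 6 were tested in NeuN+ nuclei at every time. Psmc5 gave differences in NeuN+ of -0.41, -0.30, -0.49 and -0.46 at the successive times and adjusted p in edgeR of 0.428, 0.523, 0.371 and 0.338. Of the 11 non-ATPase genes Psmd8 was too low to test. Psmd6 differed by -0.54 at 48 h (edgeR adjusted p = 0.361) and -0.55 at 72 h (edgeR adjusted p = 0.108) in NeuN+, and at 72 h its 6 IFN-γ wells at 12.4 to 22.2 CPM lay just below the saline wells at 22.2 to 29.4 CPM. Psmd14, the deubiquitinase of the cap, was tested in both fractions and differed by -0.19 to 0.28 in NeuN−, with no call.

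The sums over the 17 cap genes overlapped between treatments in both fractions at 6, 24 and 48 h. In NeuN− wells at 72 h they were 894 to 1042 CPM with IFN-γ and 751 to 863 CPM with saline, without overlap and not tested. Over all 41 members, NeuN− wells had 2306 to 2561 CPM with IFN-γ against 2030 to 2241 CPM at 6 h, 2179 to 2545 against 1616 to 2062 at 24 h, 1797 to 2174 against 1898 to 2222 at 48 h and 2038 to 2222 against 1691 to 2027 at 72 h. The member totals thus separated at 6, 24 and 72 h in NeuN− and overlapped at every time in NeuN+.

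Psme4, which encodes the activator PA200, was the most counted member of its group and gave tight estimates. In NeuN+ nuclei at 6 h it had 429, 484 and 512 CPM with IFN-γ and 354, 390 and 444 CPM with saline. The wells overlapped, and the log2 fold change of 0.19 (SE 0.07, n = 6 and 4) missed the threshold in edgeR (adjusted p = 0.0736). Psme4 differed by 0.16, 0.12 and 0.01 in NeuN+ at later times and by 0.08, 0.01, -0.12 and -0.05 in NeuN− at the 4 times. Psmf1, the inhibitor PI31, differed by 0.21, 0.08, -0.26 and -0.01 in NeuN+, and Psme3, the nuclear activator PA28 gamma, held 288 counts and was not tested. The paralogs Psme1 and Psme2, which encode the inducible activator PA28 alpha and beta, rose by 2.76 and 2.65 in NeuN− and by 2.45 and 1.78 in NeuN+ at 6 h.

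Of the assembly chaperones, Psmd5, Psmd9 and Psmg2 were tested in NeuN+ nuclei at all 4 times, Psmg1 was tested until 48 h, and Psmd10 and Psmg4 were not tested. None was called.

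Neither the difference between fractions in the IFN-γ effect nor the drift of saline wells with time gave a call for a member. The interaction of fraction and treatment called 0 of 21 members at 6 h, 0 of 25 at 24 h, 0 of 20 at 48 h and 0 of 25 at 72 h in edgeR, against 8.65%, 11.1%, 0.723% and 1.87% of all genes. At unadjusted p below 0.05 in edgeR there were 1, 4, 0 and 2 members. All genes below that limit were 1285 of 5968, 1773 of 7628, 741 of 6227 and 872 of 7494. DESeq2 called 1 member (Psma6) at 6 h and 0 later. For Psma3 the NeuN+ effect less the NeuN− effect was -0.53 at 6 h, -0.45 at 24 h and -0.68 at 72 h, with adjusted p of 0.137, 0.152 and 0.0902 in edgeR. The test for an effect unequal over time called 0 of 9 members in NeuN− and 2 of 35 in NeuN+, against 28.4% and 9.26% of all genes. In NeuN− 1 member had an unadjusted p below 0.05 in edgeR, against 1357 of 3576 genes, and DESeq2 called 0. Wells of each time came from few mice, so this test cannot tell time and mice apart. Saline wells of different times differed for 0 of 7 members in NeuN− and 0 of 34 in NeuN+ in edgeR, against 2.34% and 0.428% of all genes. At unadjusted p below 0.05 in edgeR there were 1 and 3 members, against 314 of 2782 and 1023 of 10057 genes. DESeq2 called 0.

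Between the saline fractions, 6 of 22 tested members differed, or 27.3%, where 73.9% of all genes tested did. Higher in NeuN+ were Psmd14, Psma1, Psmd1 and Psma3, and lower were the ATPase genes Psmc3 and Psmc6. Psmd14 had a lowest, median and highest level of 194, 226 and 248.6 CPM in the 18 NeuN+ wells and 99.9, 158 and 267 CPM in the 18 NeuN− wells, a log2 fold change of 0.47 (SE 0.08, edgeR adjusted p = 9.76e-07). Psmc3 had 12.7, 24 and 29 CPM in NeuN+ against 24.2, 41.4 and 88.2 CPM in NeuN−, a log2 fold change of -0.98 (SE 0.18, edgeR adjusted p = 1.75e-06). In all 6 genes the wells of the fractions overlapped.

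Psma1, with an edgeR adjusted p of 0.00012 between fractions, differed by 0.64 (SE 0.15). Psmd1, a scaffold of the cap, differed by 0.34 (SE 0.10, edgeR adjusted p = 0.00265), and Psma3 by 0.23 (SE 0.09, edgeR adjusted p = 0.0215). Psmc6 differed by -0.28 (SE 0.11, edgeR adjusted p = 0.0183) and changed sign when low genes were kept, to 0.04, so its direction depends on the filter. The Psmc6 call was also lost without any 1 of 8 NeuN− wells, namely replicates 1, 3 and 4 at 6 h, 2, 3 and 4 at 48 h and 2 and 3 at 72 h, with differences of -0.23 to -0.16. The 95% interval lay within 1 of 0 for 21 of the 22 members. With all genes kept 17 members were called, and over all 84 wells with treatment and time in the model 15 were. The share of all genes called is not given for these settings, so the counts are not read as a result about the members.

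**Figure D4:**
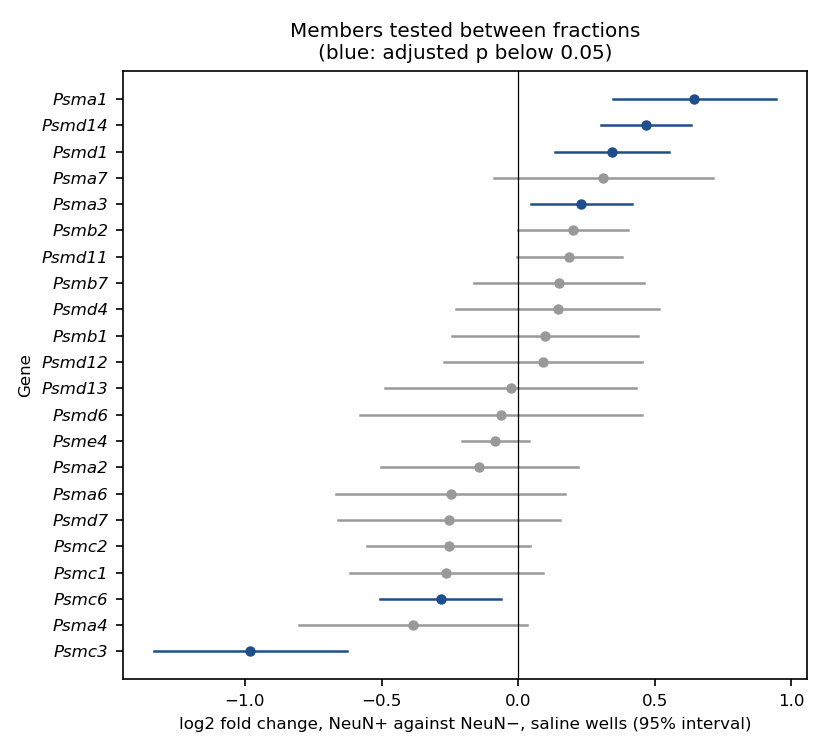
Log2 fold change between NeuN+ and NeuN− saline wells (18 each) for the 22 members tested, with 95% intervals, blue where the adjusted p was below 0.05. Psmc3 lies farthest from 0, at -0.98, and 4 of the 6 called genes are higher in NeuN+.

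Genes that build or regulate the proteasome were counted from a fixed list of 20 found in the table. In NeuN− nuclei 1 of 6 tested was called at 6 h, 1 of 2 at 24 h, 0 of 3 at 48 h and 0 of 7 at 72 h, against 33.1%, 41.3%, 6.21% and 3.98% of all genes. The called gene was AI314180 both times, the homologue of the proteasome adaptor ECM29. AI314180 had 382, 512 and 616 CPM with IFN-γ against 325, 373 and 394 CPM with saline at 6 h, with 1 saline well above the lowest IFN-γ well and a rise of 0.51 (SE 0.13, edgeR adjusted p = 0.00234). At 24 h AI314180 had 422, 489 and 617 CPM against 279, 324 and 453 CPM, a rise of 0.50 (SE 0.14, edgeR adjusted p = 0.004). In NeuN+ nuclei AI314180 differed by 0.09 and 0.07 at those times, and the difference between fractions was called at both (edgeR adjusted p = 0.0346 and 0.0181).

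In NeuN+ nuclei 0 of 18 regulators were called at 6 h, 1 of 18 at 24 h, 0 of 19 at 48 h and 0 of 18 at 72 h, against 8.6%, 11.5%, 0.867% and 7.17% of all genes. The call was Nfe2l2, an oxidative stress factor related to Nfe2l1, at 10.9, 17.7 and 24.9 CPM with IFN-γ against 7.72, 10.7 and 15.4 CPM with saline, overlapping, with a rise of 0.77 (SE 0.24, edgeR adjusted p = 0.04). Nfe2l1 itself differed by -0.37, -0.13, -0.65 and -0.15 in NeuN+ at the 4 times, with an edgeR adjusted p of 0.2 at 48 h. The chaperone Pomp, which matures the 20S core, differed by -0.49, 0.08, -0.45 and -0.09, and none was called.

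The deubiquitinases of the cap, Usp14 and Uchl5, and Vcp, the ATPase that extracts substrates, were not called in any IFN-γ comparison. Between saline fractions 8 of 14 regulators differed, where 73.9% of all genes did, among them Usp14, higher in NeuN+ by 1.01, and Nfe2l2, with a log2 fold change of -1.82.

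Single nuclei resolved the cell classes at 48 h. The table held 1016 nuclei from the saline mouse and 2574 and 1109 from the IFN-γ mice, and 0 barcodes were shared. Clusters named from markers gave 191, 744 and 306 oligodendrocyte-like, 21, 135 and 37 astrocyte-like, 166, 126 and 95 dopamine neuron-like, 301, 467 and 288 GABA neuron-like and 217, 745 and 211 VGLUT2 neuron-like nuclei in the saline mouse, IFN-γ mouse 1 and IFN-γ mouse 2. Levels in nuclei are UMIs of a gene summed over a class and expressed as CPM of the UMIs of that class. A cluster of 134 nuclei led by Inpp5d, Ly86 and Cd74 scored highest for microglia markers, at a mean z-score of 4.197 against -0.377 for the next list. The paper also counts 134 microglia, and whether they are the same nuclei was not checked. The cluster stayed unnamed under the rule used here. Its median UMI count was 0.314 of that of its own samples, and none of the microglia markers was among its 10 leading genes. Cluster 1 of the oligodendrocyte-like nuclei, led by the interferon-induced genes Iigp1 and Tgtp2, held 515 nuclei and none of the saline mouse, whose oligodendrocyte-like nuclei lay in clusters 7 (114) and 2 (77).

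In oligodendrocyte-like nuclei 1 of 40 tested members was called, against 2.3% of all genes. Psmb2 had 72 CPM (50 UMIs, 95% Poisson interval 53.4 to 94.9) in the saline mouse, and 118 (105 to 131) and 130 (112 to 150) in the IFN-γ mice. Both IFN-γ values lay above the saline interval, and the log2 fold change was 0.84 (SE 0.23, edgeR adjusted p = 0.0152), in a fit that takes the spread from the 2 IFN-γ mice and assumes it for the lone saline mouse. DESeq2 did not call Psmb2 (log2 fold change 0.87, adjusted p = 0.9997). In GABA neuron-like nuclei Psmb2 had 78.6 CPM in saline and 76.9 and 78.6 in IFN-γ.

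The other classes gave no call among members. In edgeR 0 of 36 members were called in astrocyte-like, 0 of 40 in dopamine, 0 of 41 in GABA and 0 of 41 in VGLUT2 neuron-like nuclei, against 0.274%, 0.24%, 0.0546% and 0.0476% of all genes. At unadjusted p below 0.05 in edgeR there were 1, 2, 1 and 0 members. All genes below that limit were 699 of 9482, 524 of 15849, 545 of 18312 and 810 of 18899. DESeq2 called 0 members in each class. Most members nonetheless lay above 0 in the neuron classes: 30 of 40, 33 of 41 and 32 of 41, against 50.7%, 50.9% and 51.6% of all genes. Their medians were 0.15, 0.18 and 0.18, against 0.01 for all genes in each. Members are not replicates, and with 1 saline mouse, mouse and treatment cannot be told apart.

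Summed over the 15 core genes, IFN-γ mouse 2 was the highest of the 3 mice in every class. Dopamine neuron-like nuclei had 422 CPM in the saline mouse (95% Poisson interval 402 to 443), 471 (445 to 498) in IFN-γ mouse 1 and 568 (537 to 601) in IFN-γ mouse 2. Oligodendrocyte-like nuclei had 707, 766 and 855, astrocyte-like nuclei 531, 532 and 670, GABA neuron-like nuclei 522, 550 and 636, and VGLUT2 neuron-like nuclei 485, 507 and 590. The unnamed cluster led by Inpp5d had 548 (401 to 731), 740 (625 to 871) and 1003 (878 to 1140). The gap between the IFN-γ mice was larger than that between saline and IFN-γ mouse 1 in each of the 5 named classes. The intervals cover counting error only.

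Summed over Psmb5, Psmb6 and Psmb7, the saline mouse had 54.4 CPM in dopamine, 56.7 in VGLUT2 and 69.2 in GABA neuron-like nuclei. The sum was 55 in astrocyte-like nuclei, 127 in oligodendrocyte-like nuclei and 119 in the cluster led by Inpp5d. The level in dopamine neuron-like nuclei was thus shared with other classes. Psmb6 had 8.34 CPM in saline dopamine neuron-like nuclei and 13.2 and 18.8 in IFN-γ (33, 35 and 41 UMIs), a difference of 0.92 that was not called (edgeR adjusted p = 0.9998). Psmb5 had 9.1, 10.2 and 16.5, and Psmb7 36.9, 40.7 and 42.6 in the same nuclei. In oligodendrocyte-like nuclei Psmb5 had 33.1, 27.8 and 25.6, while Psmb8 had 0 of 694527 UMIs in saline, for which the exact interval reaches 5.31 CPM, and 43.3 and 91.4 in the IFN-γ mice. All 5 inducible genes were called in that class, and Psmb8 alone was called in dopamine neuron-like nuclei (edgeR adjusted p = 0.00512), at 0.506, 6.78 and 9.63.

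Psma8 stood apart by class. It had 0 UMIs in oligodendrocyte-like and astrocyte-like nuclei of all 3 mice and 0 to 3.58 CPM in the neuron classes. In the cluster led by Inpp5d it had 23.8, 25.5 and 17.2 CPM, from 2, 5 and 4 UMIs. Counts this small give wide intervals, 2.88 to 86 in the saline mouse. Members summed to 1881, 2098 and 2479 CPM in that cluster, and to 2106, 2119 and 2223 in oligodendrocyte-like nuclei, 1585, 1720 and 1818 in astrocyte-like nuclei and 1431, 1501 and 1626 in dopamine neuron-like nuclei.

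**Figure D5:**
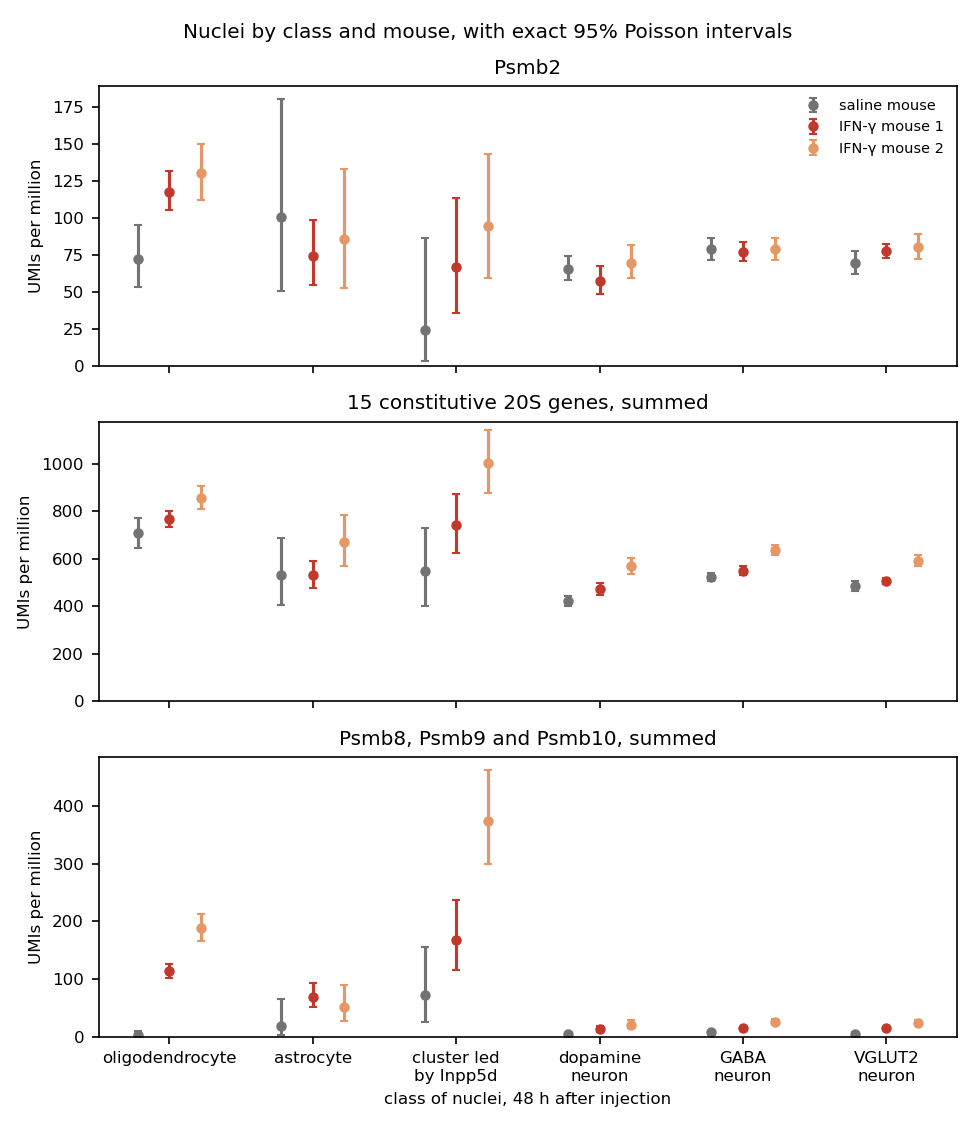
CPM in each class of nuclei at 48 h (x axis) for the saline mouse (grey) and the IFN-γ mice (red and orange), with exact 95% Poisson intervals, for Psmb2 (top), the 15 constitutive 20S genes (middle) and Psmb8, Psmb9 and Psmb10 (bottom). Psmb2 in oligodendrocyte-like nuclei is 72 in saline and 118 and 130 in IFN-γ, and IFN-γ mouse 2 has the highest core sum in every class.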

How the data were processed

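Nuclear RNA was counted in 84 bulk wells and in single nuclei. The authors deposited raw UMI counts per gene, made with STAR on GRCm38 per the submitters' processing notes and Gencode annotation per the study's methods. The labels call every well NeuN+, so fractions were taken from the study's supplementary sample sheet by well barcode. No column lacked a sample. The authors removed doublets from the single nuclei before deposit.

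Bulk comparisons used the edgeR 4.0.16 quasi-likelihood test (R 4.3.3, limma 3.58.1; filterByExpr, TMM) over all genes, with Benjamini-Hochberg adjustment. Replicates were wells, some of which share a mouse, so p-values measure the spread between wells. Levels are CPM of the deposited counts. NeuN− depth was 20962 to 301445 counts and NeuN+ 277113 to 1684374. Genes named with values were the catalytic, activator and inhibitor genes, the members called in a comparison (up to 3 in each direction by adjusted p), those called in a class of nuclei, and fixed regulator, inducible and sex-linked genes. A further fixed list is not reported here. Uncalled members named beside them (Psma6, Psmb3, Psmc5, Psmd6 and Psma8) and AI314180 were chosen after their values were seen. Members and lists were chosen with earlier results of these data known.

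Nuclei were clustered by the Leiden method at resolution 1, on a graph of 15 neighbours in 30 components of the 2000 most variable genes (Python 3.11.15, scikit-learn 1.9.0, leidenalg 0.10.2). A cluster was named when 1 marker list led by 0.75 in mean z-score and at least 3 of its markers were in 5% of nuclei, and was left unnamed where its nuclei had few UMIs for their sample and none of the list's markers was among its 10 leading genes. UMIs were summed per mouse and class, and genes with at least 10 UMIs were tested in edgeR. Intervals are exact Poisson and cover counting error only. Promoters are RefSeq (GRCm38.p6).

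Alternatives were DESeq2 1.42.0, RLE size factors, no filter on low counts, saline wells of all times, 1 fit of all wells, NeuN+ counts thinned to NeuN− depth, at least 30 UMIs, Leiden resolutions 0.5 and 2, and leaving out each well. Scripts were tested on simulated data. Raw reads were not analysed here.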

Additional observations from a re-analysis of the deposited data

Results flagged for a closer look

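Of 46 groups of wells examined with Dixon's criterion, 3 held a well far from the others, where chance gives about 1 in 20. The summed level of all members in NeuN+ saline wells at 6 h was lowest in replicate 1, at 1858 CPM, and this well was also the shallowest NeuN+ well, with 277113 counts. Without it Psma1 and Psma5 at 6 h differed by 0.40 and 0.76, with adjusted p of 0.022 and 0.017 in edgeR. The 20S sum of NeuN− saline wells at 24 h was lowest in replicate 3, at 400.4 CPM, and that of NeuN+ IFN-γ wells at 6 h was lowest in replicate 5, at 614 CPM.

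The effect of IFN-γ on AI314180 differed between the fractions at 6 h (interaction in edgeR, adjusted p = 0.0346) and at 24 h (adjusted p = 0.0181), with the larger rise in NeuN−. In NeuN+ nuclei, where time and mice cannot be told apart, the effect on Psma3 (edgeR adjusted p = 0.00474) and on Psma5 (edgeR adjusted p = 0.00675) differed between times. Their differences were 0.24 and 0.69 at 6 h, of which only that of Psma5 was called, and -0.16 and -0.50 at 72 h, neither called.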

How the results depend on the processing

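No paired analysis was possible because the labels carry no replicate numbers. Against saline wells of all times, members called numbered 2 (NeuN−, 6 h), 4 (NeuN−, 24 h), 0 (NeuN−, 72 h), 4 (NeuN+, 6 h) and 1 (NeuN+, 72 h). In 1 fit of all wells 2 were called in NeuN− at 6 h and 0 at 72 h. With low counts kept there were 0 in NeuN− at 72 h, 4 in NeuN+ at 6 h, 17 between fractions and 1 for an unequal effect over time in NeuN−, and Psmc6 between fractions turned to 0.041. All wells together gave 15 between fractions. DESeq2 gave 0 in NeuN− at 72 h, 1 in the interaction at 6 h and 0 in oligodendrocyte-like nuclei. Thinned NeuN+ counts gave 0 at 6 and 24 h, where 8 and 7 members could be tested. Member sums of saline nuclei moved to 1605 (GABA, resolution 0.5) and 1468 and 1509 CPM (VGLUT2, resolutions 0.5 and 2). For the counts of calls in this section, the share of all genes called under each setting is not given. They show only how the counts move with the setting.

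Leaving out 1 well gave 0 to 1 calls in NeuN− at 24 h (lost without saline replicate 2) and at 72 h, 0 to 3 in NeuN+ at 6 h (moved by saline replicates 2, 3 and 4 and IFN-γ replicate 3), 0 to 1 in NeuN+ at 72 h (IFN-γ replicate 2), 0 to 1 in the interactions at 6 h (NeuN− saline replicate 3, IFN-γ replicates 1 and 2) and 24 h (NeuN− saline replicates 2 and 5), 0 to 1 for an unequal effect over time in NeuN− (48 h saline replicate 3) and 6 to 9 between fractions. The causes were not tested. NeuN− depth limits that fraction to 7 or 8 testable members. The cluster that scored highest for microglia markers stayed unnamed under the naming rule, so the planned microglia comparison was not run.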
